A study of Mus musculus with 12 samples.

Results

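The Gimap genes encode a family of GTP-binding proteins of immune cells, and their messenger RNA was followed here in the mouse femur with and without the homeobox gene Dlx3. The members were taken by gene symbol, and all 8 symbols (Gimap1, Gimap3, Gimap4, Gimap5, Gimap6, Gimap7, Gimap8 and Gimap9) stood in both deposited tables, among 18335 symbols found in both. They were carried by 11 RefSeq transcripts in each table, whose values were summed per symbol. RNA came from 5-week-old male mice of mixed background. The metaphysis, the flared part of the bone beside the growth plate, and the diaphysis, the shaft, were sequenced separately. Each region held 3 libraries of wild-type animals (WT, Dlx3+/+) and 3 of animals with the conditional deletion labelled Dlx3Oc-cKO (cKO from here on), which makes 12 libraries in 4 groups. The driver of the deletion is not spelled out in the labels. The titles give every library a number of its own but do not say that it marks an animal, so the p-values measure the spread between libraries, which may be technical. The family was chosen by measured genotype differences of these RPKM values, that of Gimap3 in the diaphysis (-0.78 on the log2 scale) being among those known at the time. The genotype differences below are therefore a description and no independent test.

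Gimap proteins share a GTP-binding domain of the AIG1 type, first known from plant disease resistance, and most sit on membranes inside the cell, such as those of the endoplasmic reticulum, mitochondria, lysosomes or lipid droplets. They are known mainly for keeping lymphocytes alive: loss of Gimap5 in rodents empties the body of T cells, and loss of Gimap1 removes mature B and T cells. Marrow holds such lymphocytes along with their precursors, and some members are also transcribed in the endothelium of blood vessels.

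All 8 genes lie in 1 cluster on chromosome 6, spanning 119.3 kb from 48597233 to 48716518 in the mouse build mm9 (NCBIM37, GENCODE vM1 annotation). In order along the chromosome the coding transcripts are Gimap8 (chr6:48597233-48610874), Gimap9 (chr6:48626128-48628698), Gimap4 (chr6:48634577-48642061), Gimap6 (chr6:48651581-48658224), Gimap7 (chr6:48668620-48674635), Gimap1 (chr6:48689053-48693789), Gimap5 (chr6:48696196-48704209) and Gimap3 (chr6:48715088-48716518). Gimap6 and Gimap3 are read from the minus strand and the other members from the plus strand. The Gimap3 transcript used here is coding sequence alone (906 bases). Its RefSeq upstream window lies beyond the stated end, at chr6:48720851-48721100, so the RefSeq transcript reaches further than this span. Dlx3 itself is on another chromosome. Most members code for proteins of 291 to 328 residues, whereas Gimap8, which carries several GTP-binding domains in a row, codes for 688. Gimap3 and Gimap5 are close copies. Of the 857 windows of 50 bases in the Gimap3 coding transcript 190 (22.2%) occurred letter for letter in Gimap5, which holds 1904 such windows, so the split of reads between this pair is uncertain. No other pair of members shared such a window. The library kit does not mark the strand, and GENCODE draws further Gimap1 transcripts from 48668606 to 48702599, across Gimap7 and into Gimap5, as well as a noncoding gene on the opposite strand at Gimap1. Reads of overlapping genes there cannot be told apart.

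The upstream sequences of Gimap4, Gimap6 and Gimap1 are shown because these are the 3 members past the test in the metaphysis, the first pair higher and the last lower. Each is the 250 bases before the RefSeq start site, 5′ to 3′ on the gene's strand, and was matched once and exactly to mm9: chr6:48634327-48634576 (plus) for Gimap4, chr6:48658244-48658493 (minus) for Gimap6 and chr6:48688796-48689045 (plus) for Gimap1. Capitals mark AGGAAG, a form of the sites for ETS factors, TGTGGT, a form of the sites for RUNX factors, and TATAAA, the letters of a TATA box. Each was searched on either strand.
Gimap4: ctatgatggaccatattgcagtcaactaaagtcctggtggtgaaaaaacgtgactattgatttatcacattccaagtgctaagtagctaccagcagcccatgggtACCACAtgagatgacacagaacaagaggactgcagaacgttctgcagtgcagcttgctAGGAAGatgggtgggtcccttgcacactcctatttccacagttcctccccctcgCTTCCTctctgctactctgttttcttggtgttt
Gimap6: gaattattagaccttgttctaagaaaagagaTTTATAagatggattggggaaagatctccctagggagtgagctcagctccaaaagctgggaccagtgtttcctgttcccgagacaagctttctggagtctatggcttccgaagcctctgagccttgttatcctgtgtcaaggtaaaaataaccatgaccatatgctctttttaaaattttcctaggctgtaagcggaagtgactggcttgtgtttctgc
Gimap1: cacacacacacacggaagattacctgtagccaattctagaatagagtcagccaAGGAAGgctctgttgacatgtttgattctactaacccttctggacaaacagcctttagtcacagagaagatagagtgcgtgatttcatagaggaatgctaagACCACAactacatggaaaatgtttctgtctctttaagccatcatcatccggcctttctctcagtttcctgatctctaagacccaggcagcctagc
Gimap4 held the ETS letters at -87 and, on the opposite strand, at -33, counted in bases from the start site to the motif's first base, and the RUNX letters on the opposite strand at -145. Gimap1 held the ETS letters at -197 and the RUNX letters, again on the opposite strand, at -95. In Gimap6 the only marked letters were TATAAA on the opposite strand at -219. RefSeq start sites of all 8 members were in the table, 9 upstream windows in all because Gimap8 has a pair. AGGAAG stood in 7 of the 9 windows (29.5% of all 32851 upstream windows of the same length), TGTGGT in 3 (14.0%) and TATAAA in 1 (12.4%). GATA letters (AGATAA, 3281 of all windows) and the homeobox letters TAATTG (7.2% of all windows) stood in 0 of the 9. A match describes these exact letters in this window only. Other forms of the sites were not searched, so a window without a match may still hold a site.

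Levels were deposited as RPKM, a read density scaled to transcript length and library depth, a scale per length on which members can be set beside each other. Read depth, worked out from the spacing of the lowest values, was about 24400000 to 34290000 reads in the metaphysis and 17820000 to 53190000 reads in the diaphysis. These depths put roughly 464 to 1884 reads of a library on Gimap6 but 14 to 121 on Gimap7. Dlx3 was at 8.37 to 10.1 RPKM in metaphysis WT and 1.98 to 3.24 in metaphysis cKO, and at 3.22 to 13.1 RPKM in diaphysis WT and 0.763 to 1.55 in diaphysis cKO, without overlap in either region. Osteoblast genes, which define bone tissue, summed to 14478 RPKM or more in every metaphysis library. In the diaphysis they summed to only 4617 RPKM in WT replicate 1, against 18990 and 27071 RPKM in WT replicates 2 and 3. The cKO libraries of the diaphysis held 11059 to 15903 RPKM. Globin genes took 10.8% to 11.7% of the summed RPKM in metaphysis WT, 8.39% to 10.9% in metaphysis cKO, 14.4% to 31.2% in diaphysis WT and 14.6% to 25.4% in diaphysis cKO. Diaphysis WT replicate 1, the library with the most globin, stood apart from the other diaphysis libraries, with an SD of the log2 difference of 0.62 to 0.82 against each of them.

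Gimap6, whose product binds an autophagy protein of the GABARAP group, had the highest level of the family in every group. In WT its mean was 19.0 ± 1.95 RPKM in the metaphysis and 20.8 ± 1.09 RPKM in the diaphysis (SD, n = 3). Gimap1 (11.04 ± 0.47 and 10.9 ± 1.57 RPKM) and Gimap4 (8.11 ± 1.10 and 13.3 ± 1.43 RPKM) followed, in this order in the metaphysis and in the reverse order in the diaphysis, where their libraries overlapped. The middle of the order was held by Gimap9 (6.06 ± 0.60 and 6.26 ± 1.38 RPKM), Gimap8 (4.22 ± 0.23 and 5.27 ± 0.11 RPKM) and Gimap3 (4.01 ± 0.58 and 5.96 ± 1.06 RPKM). Gimap8 and Gimap3 overlapped in the WT metaphysis, as did Gimap3 with both of the others in the WT diaphysis. Gimap5 (1.47 ± 0.23 and 2.81 ± 0.32 RPKM) and Gimap7 (1.27 ± 0.11 and 1.801 ± 0.54 RPKM) were lowest. Their libraries overlapped in the WT metaphysis and were apart in the other groups. The regions were normalized in separate tables, so WT levels stand side by side here without a test. All 8 members passed the minimum of 1 RPKM in 3 of 6 libraries in both regions, Gimap7 with 4 libraries in each. For Gimap7 these were all WT libraries plus cKO replicate 1 in the metaphysis and cKO replicate 2 in the diaphysis. It was thus kept through the genotype in which it was higher, which limits the reading of its lower cKO levels.

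**Figure D1:**
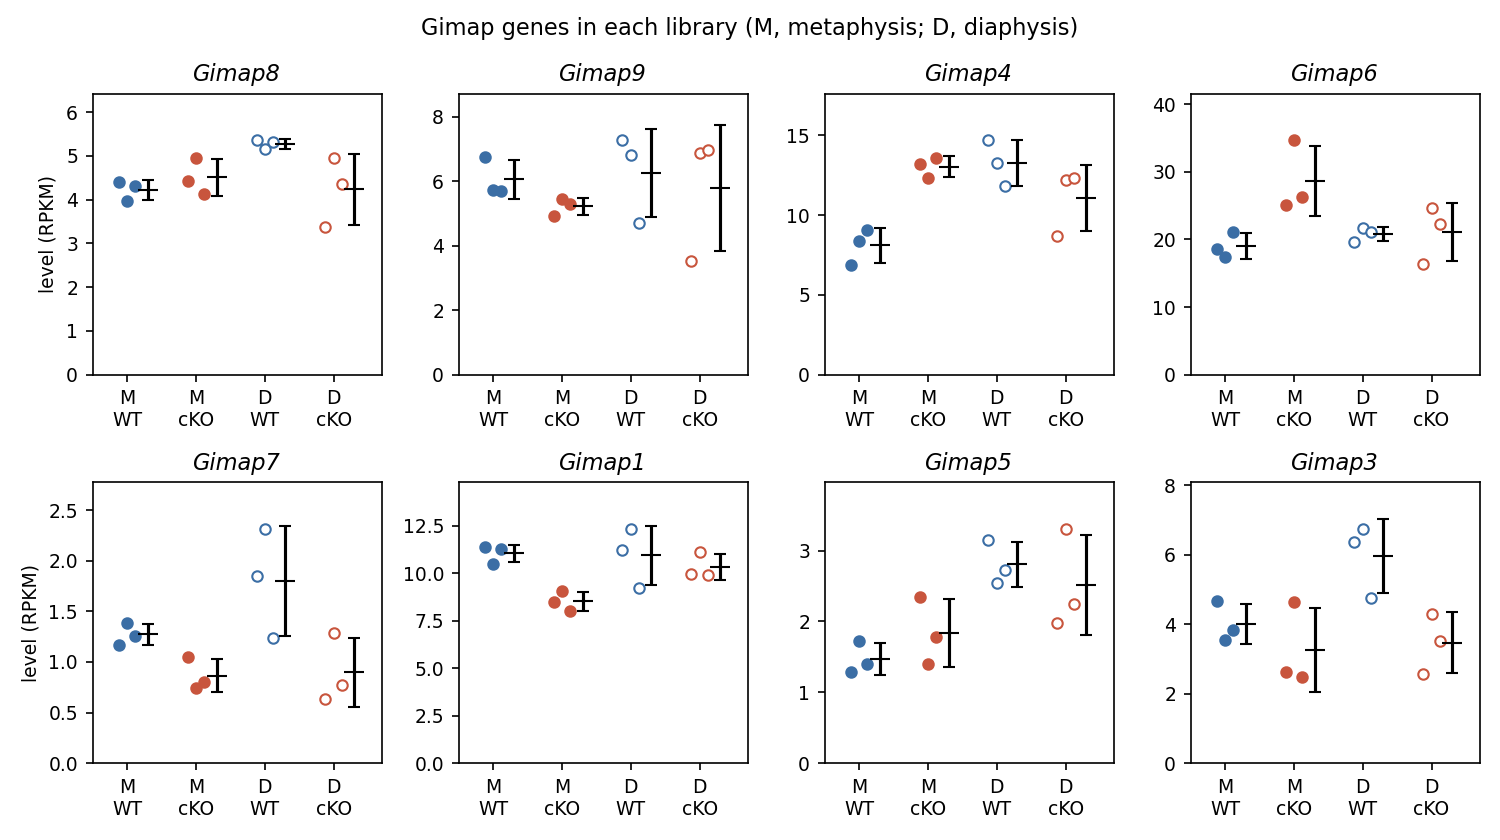
Level of each Gimap gene in RPKM (linear axis from 0) in every library of the metaphysis (M, filled points) and diaphysis (D, open points), WT in blue and cKO in red, with the mean and SD of 3 libraries in black. In the metaphysis the cKO points of Gimap4 and Gimap6 lie above all WT points and those of Gimap1, Gimap7 and Gimap9 below them.

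In the metaphysis, where the effect of losing Dlx3 was asked with 6 libraries, members of this one cluster went different ways. Gimap4 and Gimap6 rose, Gimap1 fell, and the other 5 did not pass. Of all 12641 genes tested, 11.4% passed (limma on log2(RPKM + 0.1), adjusted p under 0.05), 7.51% higher and 3.89% lower. Without adjustment 3 members and 30.6% of genes were under 0.05. The median log2 difference was -0.058 over the 8 members and -0.036 over all genes tested.

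Gimap4, whose product hastens the death of stimulated T cells, was at 6.90, 8.37 and 9.07 RPKM in the 3 WT libraries of the metaphysis and at 13.2, 12.3 and 13.6 RPKM in the cKO libraries. Every cKO library was above every WT library. The log2 difference was 0.69 ± 0.12 (SE; limma, adjusted p = 0.0182). Nearly all of it was carried by transcript NM_174990, and the second transcript, NM_175048, stayed at or below 1.03 RPKM in these libraries. Gimap6 was at 18.5, 17.3 and 21.1 RPKM in WT and at 25.1, 34.7 and 26.3 RPKM in cKO. The groups did not overlap, and cKO replicate 2 was the highest library by a wide margin. The log2 difference was 0.58 ± 0.14 (SE; limma, adjusted p = 0.0446).

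Gimap1, needed for the upkeep of mature lymphocytes, went the opposite way in the same libraries. It was at 11.4, 10.5 and 11.3 RPKM in WT and at 8.50, 9.04 and 8.01 RPKM in cKO, again without overlap (log2 difference -0.37 ± 0.091 SE; limma, adjusted p = 0.0428). Its level is the sum of NM_008376 and the smaller NM_175860. NM_008376 was at 8.80, 8.29 and 10.2 RPKM in WT and at 7.76, 8.57 and 6.43 RPKM in cKO, which overlap, and with the highest transcript alone Gimap1 did not pass (limma, adjusted p = 0.255). Nor did it pass when the libraries were rescaled without globin (limma, adjusted p = 0.0816).

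Gimap7 and Gimap9 were lower in every cKO library of the metaphysis but did not pass. Gimap7, a GTPase of lipid droplets, was at 1.17, 1.38 and 1.26 RPKM in WT and at 1.05, 0.747 and 0.798 RPKM in cKO (log2 difference -0.52 ± 0.22 SE; limma, adjusted p = 0.167). Gimap9 was at 6.76, 5.72 and 5.71 RPKM in WT and at 4.93, 5.44 and 5.31 RPKM in cKO (log2 difference -0.21 ± 0.11 SE; limma, adjusted p = 0.249). In all, 2 members were higher without overlap, where 18.7% of tested genes were, and 3 were lower without overlap, where 18.4% of tested genes were (37.1% in either direction). Gimap7, among the 3, had passed the minimum through its WT libraries.

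The genotypes overlapped for the remaining members of the metaphysis. Gimap3, found on mitochondria and the endoplasmic reticulum, was at 4.66, 3.54 and 3.83 RPKM in the WT libraries and at 2.63, 4.64 and 2.48 RPKM in the cKO libraries, where replicate 2 stood with the WT libraries (log2 difference -0.34 ± 0.25 SE). Its near copy Gimap5, a protein of lysosomes, had a log2 difference of 0.28 ± 0.23 (SE), and Gimap8 one of 0.090 ± 0.11 (SE). For both, limma gave adjusted p values above the threshold (0.444 and 0.631).

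The 3 calls of the metaphysis did not hold under every choice of libraries. Gimap4 no longer passed without WT replicate 1 (limma, adjusted p = 0.0545), WT replicate 2 (0.0597) or cKO replicate 3 (0.0681). Gimap6 passed among these fits only without cKO replicate 1 (limma, adjusted p = 0.0466), and Gimap1 only without cKO replicate 2 (0.0491). In a fit that took its spread from all 12 libraries, 0 members passed (limma, adjusted p = 0.210, 0.232 and 0.232 for Gimap4, Gimap6 and Gimap1). The signs of all 3 stayed the same in these fits.

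Among the 6 diaphysis libraries 0 of 8 members passed between genotypes, as did 0 of 12540 genes (limma, 0% called; 0.686% of genes and 2 members at an unadjusted p under 0.05). The 2 members were Gimap3 and Gimap7, the latter kept by the minimum through its WT libraries. Gimap3 was at 6.38, 6.74 and 4.76 RPKM in WT and at 2.56, 4.31 and 3.52 RPKM in cKO. All cKO libraries were below all WT libraries (log2 difference -0.78 ± 0.24 SE; limma, adjusted p = 1.00). Gimap7 was at 1.85, 2.31 and 1.23 RPKM in WT and at 0.635, 1.29 and 0.768 RPKM in the cKO libraries, where the second cKO library overlapped the WT range (log2 difference -0.94 ± 0.37 SE). Gimap8 was at 5.35, 5.15 and 5.31 RPKM in WT and at 3.37, 4.96 and 4.36 RPKM in cKO, lower without overlap (log2 difference -0.33 ± 0.19 SE). Thus 2 members, Gimap3 and Gimap8, were lower without overlap, as were 0.789% of tested genes. Higher without overlap were 0 members and 2.24% of genes (3.03% in either direction). The Gimap3 difference was among the values known when the family was chosen, so these counts do not test for an excess. Dlx3 itself did not pass in the diaphysis either, although its genotypes did not overlap there. The lack of calls in this region therefore does not show a lack of differences.

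Gimap4 and Gimap6, the pair that rose in the metaphysis, overlapped between genotypes in the diaphysis. Gimap4 was at 14.7, 13.3 and 11.8 RPKM in WT and at 8.69, 12.2 and 12.3 RPKM in cKO (log2 difference -0.27 ± 0.19 SE). Gimap6 was at 19.6, 21.7 and 21.1 RPKM in WT and at 16.3, 24.7 and 22.2 RPKM in cKO (log2 difference -0.0010 ± 0.18 SE). Gimap1 (-0.076 ± 0.16), Gimap5 (-0.18 ± 0.25) and Gimap9 (-0.15 ± 0.31) had log2 differences smaller than their SE. One library, cKO replicate 1, was the lowest of the diaphysis for 7 of the 8 members and had a family sum of 47.0 RPKM, against 60.8 to 70.9 in the other 5. It was also the shallowest library, at about 17820000 reads, and its median ratio to the region's geometric mean library was 0.890. Its mean log2 level less the region's mean was -0.43 for the T cell list and -0.80 for the NK and cytotoxic cell list. For the B cell list it was -0.45 and for the monocyte and macrophage list -0.77. The neutrophil (-0.13), osteoblast (-0.15) and stem and progenitor (-0.16) lists were slightly below the mean. Above it were the endothelial (0.068), erythroid (0.11) and megakaryocyte and platelet (0.45) lists. The part of these lists in the member values was not tested. Without cKO replicate 1 the log2 difference was -0.58 for Gimap3, -0.75 for Gimap7, -0.18 for Gimap8 and -0.11 for Gimap4. It was -0.051 for Gimap1, -0.033 for Gimap5 and above 0 for Gimap6 and Gimap9 (both 0.17).

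**Figure D2:**
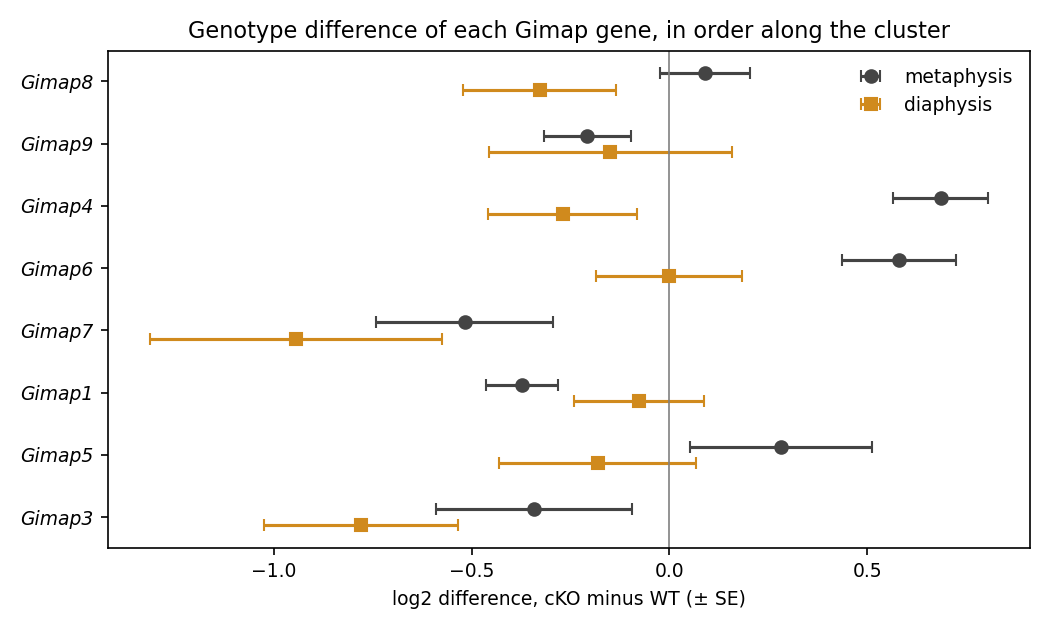
Log2 difference of each Gimap gene between cKO and WT, on the log2(RPKM + 0.1) scale, with its SE, in the metaphysis (circles) and diaphysis (squares), ordered along the cluster. Gimap4 and Gimap6 stand at 0.69 and 0.58 in the metaphysis and at -0.27 and -0.0010 in the diaphysis.

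Whether the genotype difference itself differed between regions was asked in a fit of all 12 libraries. For Gimap4 the diaphysis difference was below that of the metaphysis by 0.96 ± 0.22 on the log2 scale (SE; limma, unadjusted p = 0.00121), for Gimap6 by 0.58 ± 0.24 (unadjusted p = 0.0319) and for Gimap8 by 0.42 ± 0.21 (unadjusted p = 0.0731). After adjustment over 12321 genes 0 members and 0 genes passed (limma, adjusted p = 0.908 for Gimap4, with 0.0584 to 1.00 over the alternatives; 4.02% of genes and 2 members at an unadjusted p under 0.05). Without diaphysis WT replicate 1, 247 genes passed (limma) and 0 of them were members.

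The make-up of the family's signal was also set side by side, without a test. The summed level was 55.1, 52.5 and 58.0 RPKM in metaphysis WT and 62.2, 73.2 and 62.4 RPKM in metaphysis cKO. Gimap4 and Gimap6 together made up 46.2%, 48.9% and 52.1% of it in WT and 61.6%, 64.2% and 63.9% in cKO. Over the same libraries the share of Gimap1 went from 20.02% ± 0.61 to 12.96% ± 0.66 (SD, n = 3), and that of Gimap9 was 9.84% to 12.3% in WT and 7.43% to 8.51% in cKO. In the diaphysis Gimap4 and Gimap6 held 49.3% to 54.0% in WT and 53.2% to 55.4% in cKO, ranges that overlap. Gimap3 held 8.83% ± 0.89 there in WT and 5.79% ± 0.42 in cKO. Within a library a share does not depend on the scaling of that library. Gimap4 and Gimap6 were added together because both were called higher in these metaphysis libraries, so their joint share restates that rise. Shares of a library add up to a fixed whole, so lower shares of other members follow from it in part. The ratio of Gimap6 to Gimap1 restates the same differences. The level of Gimap6 was 1.63 to 1.88 times that of Gimap1 in metaphysis WT and 2.95 to 3.83 times in metaphysis cKO. That ratio was 1.74 to 2.28 in diaphysis WT and 1.64 to 2.25 in diaphysis cKO.

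**Figure D3:**
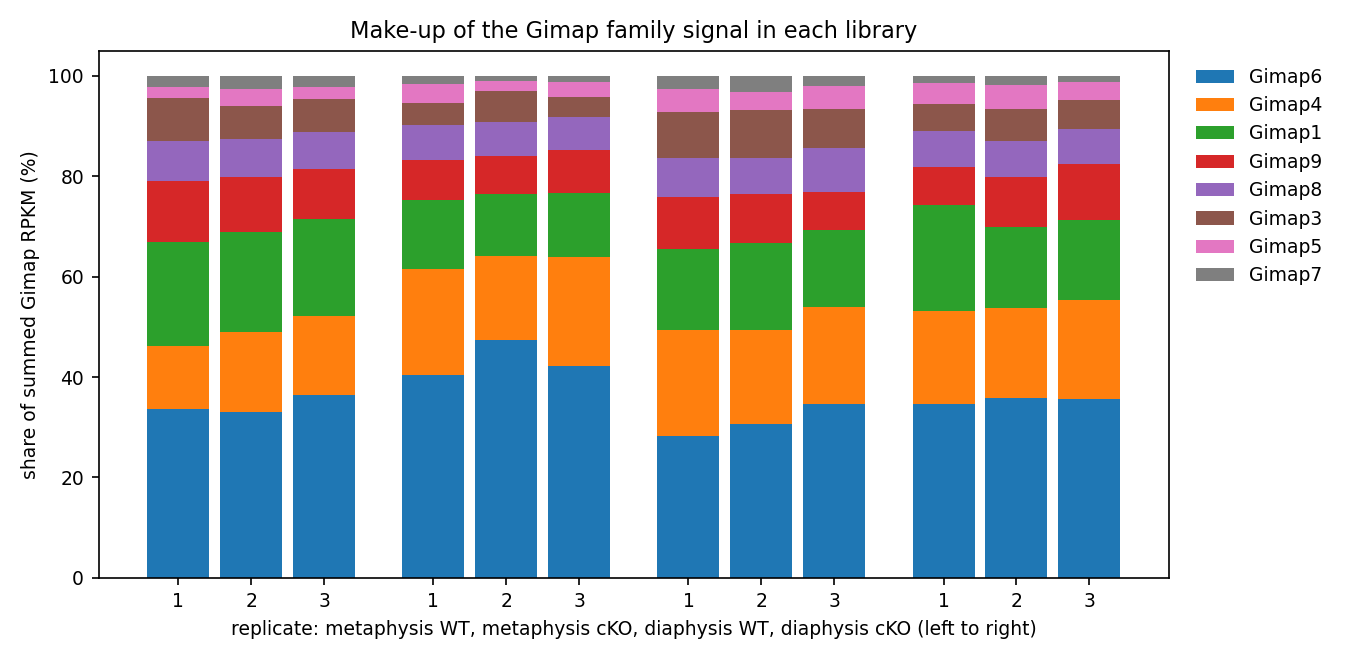
Share of each Gimap gene in the summed Gimap RPKM of each library, in percent, as stacked bars starting at 0, with the 4 groups from left to right. Gimap6 and Gimap4 at the bottom of the bars reach 46.2% to 52.1% in metaphysis WT and 61.6% to 64.2% in metaphysis cKO.

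Of the cells that can express Gimap genes, endothelial and B cell markers moved in the same libraries, while T cell markers did not move together. In bulk tissue fewer cells of a type and less RNA per cell cannot be told apart. Of 22 endothelial genes 9 rose and 0 fell in the cKO metaphysis (7.51% and 3.89% of all genes), with a median log2 difference of 0.47. Plvap, of fenestrated vessel walls (0.93 ± 0.097), Emcn, of sinusoids (0.95 ± 0.11), the transcription factor gene Sox18 (0.85 ± 0.13) and the junction gene Cdh5 (0.60 ± 0.093) had the smallest p. Vwf, the clotting factor gene of endothelium and megakaryocytes, was lower without overlap but did not pass (WT mean 10.7 RPKM, cKO mean 5.88 RPKM; log2 difference -0.90; limma, adjusted p = 0.0648). The summed endothelial level was 237 to 241 RPKM in metaphysis WT and 324 to 336 RPKM in metaphysis cKO, and 193 to 243 and 245 to 264 RPKM in the diaphysis. Its part in the rise of Gimap4 and Gimap6 was not tested.

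Of 20 B cell genes 19 passed the minimum. In the cKO metaphysis 12 fell and 0 rose (3.89% and 7.51% of all genes), with a median log2 difference of -0.67. Among them were the kinase gene Blk (-1.13 ± 0.15), Pou2af1 (-0.85 ± 0.12) and the B cell factor Pax5 (-0.98 ± 0.15). The summed B cell level was 610 to 761 RPKM in metaphysis WT and 396 to 466 RPKM in metaphysis cKO, and 430 to 568 and 381 to 616 RPKM in the diaphysis. Its part in the fall of Gimap1 was not tested. T cell genes were low and did not move together. Of 20, 12 passed the minimum, and 2 rose, Tcf7 (1.20 ± 0.19) and Cd28 (1.07 ± 0.21), while the cytokine receptor gene Il7r (-0.80 ± 0.17), which B cell precursors also use, fell. Their summed level was 70.6 to 71.7 RPKM in metaphysis WT and 68.3 to 73.9 RPKM in metaphysis cKO. Cd3d, of the T cell receptor complex, did not pass (-0.14 on the log2 scale; limma, adjusted p = 0.715). Of 14 natural killer and cytotoxic cell genes 6 reached the minimum and were tested, and 0 passed. No marker of these 4 lists was at 0 in all libraries of a region.

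Markers of the other marrow cells were given the same reading, beside the 7.51% of all genes that rose and the 3.89% that fell. In the cKO metaphysis 6 of 14 measured erythroid genes fell and 0 rose (summed level 1377 to 1696 RPKM in WT and 577 to 1059 RPKM in cKO), with Ank1, Gata1, Ermap and Alas2 at the smallest p. Of 13 megakaryocyte and platelet genes 2 fell, Ppbp and Gp5, and of 9 tested stem and progenitor genes 1 fell, Myb. Of 17 monocyte and macrophage genes Csf1r and Cd68 rose and Vcam1 fell, and of 15 neutrophil genes 1 rose, Mmp9, which osteoclasts also make. Of 12 osteoblast genes 9 rose and 0 fell, led by Bmp3, Pth1r, Alpl and Phospho1, and the summed osteoblast level was 14478 to 18889 RPKM in WT and 23072 to 24516 RPKM in cKO. The part of these lists in the member values was not tested. In the diaphysis 0 genes of these lists passed. Globin-free rescaling left the calls of Gimap4 and Gimap6 past the threshold (limma, adjusted p = 0.0153 and 0.0315).

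**Figure D4:**
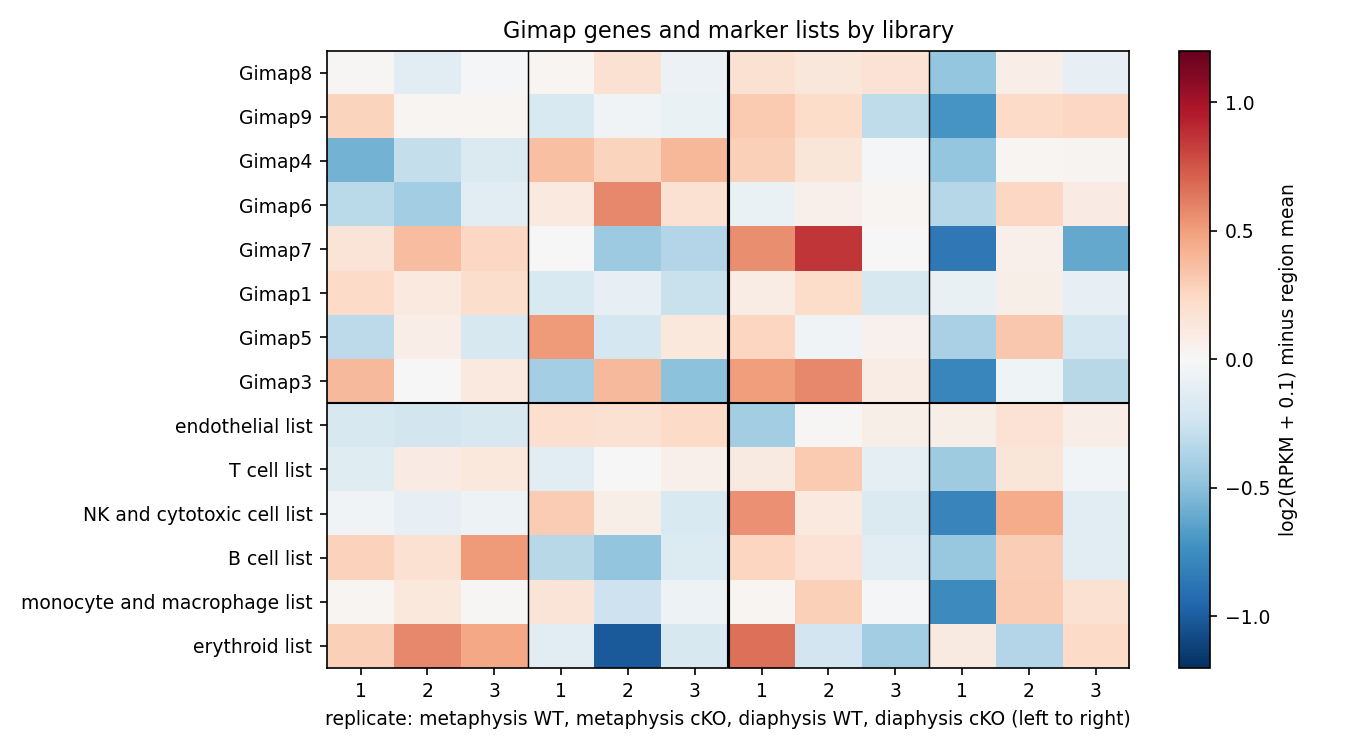
Log2(RPKM + 0.1) of each Gimap gene, and the mean of each marker list's tested genes, in every library after subtracting the region's mean. Red is above and blue below that mean, with the 4 groups from left to right. In the metaphysis Gimap4, Gimap6 and the endothelial list are above their mean in the 3 cKO libraries, and Gimap1, the B cell list and the erythroid list below it.

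Genes that work beside the family were read from lists. Among 17 genes of autophagy and cell survival that Gimap proteins are linked to, 1 fell in the cKO metaphysis, the survival gene Bcl2l1 (-0.69 ± 0.12; limma, adjusted p = 0.0183), and 16 did not pass. Gabarapl2, the autophagy partner of Gimap6, had 78.6 RPKM in WT and 67.0 RPKM in cKO (limma, adjusted p = 0.217). Of 25 tested genes of other immune and lymphocyte GTPases and their regulators, 1 rose, the interferon-induced Tgtp2 (0.67 ± 0.16). In the same list 1 fell, Rhoh, a small GTPase of lymphocytes (-0.82 ± 0.098). These shares were near or below the 7.51% and 3.89% of all genes. The median log2 difference was 0.095 over the first list and -0.096 over the second, beside -0.036 over all genes. Of 15 tested regulators of lymphocytes, 3 fell, namely Ikzf3 (-0.95 ± 0.16), Bach2 (-0.83 ± 0.14) and Ikzf1 (-0.68 ± 0.14). The remaining calls were higher, Runx3 (0.83 ± 0.13) and S1pr1 (0.39 ± 0.099). In the diaphysis 0 genes of these lists passed.

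Genes next to the cluster were read as well, the 5 measured symbols on each side. In the metaphysis 6 of the 10 passed the minimum, and 2 rose while 0 fell (7.51% and 3.89% of all genes). They were Tmem176a (WT mean 61.1 ± 9.15 RPKM, cKO mean 98.8 ± 5.64 RPKM; log2 difference 0.70 ± 0.12 SE) and Tmem176b (107 ± 7.96 and 148 ± 8.56 RPKM; 0.47 ± 0.093), a pair of membrane protein genes on the Gimap3 side that are abundant in myeloid cells. Limma gave them adjusted p values of 0.0177 and 0.0250. On the Gimap8 side Repin1 was higher without overlap in both regions but did not pass (0.37 ± 0.13 in the metaphysis; limma, adjusted p = 0.104). In the diaphysis 4 of the 10 were tested and 0 passed.

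Likeness to the family was measured as the root mean square difference over the 12 libraries between a gene and the mean of the 8 members, both on the log2(RPKM + 0.1) scale and centred on each region's mean. The members' mean itself varied by 0.19 on that measure, and the median of 12313 other genes was 0.26 away. The 8 nearest genes were Tbc1d1 (0.072), Fdxr (0.077), B630005N14Rik (0.079), Tmem138 (0.085), Slc9a9 (0.093), Gng2 (0.096), Exoc1 (0.097) and Polr2j (0.10). Among the members, Gimap4 was nearest to Gimap6 (0.20), while Gimap6 and Gimap7 were farthest apart (0.59), and the near copies Gimap3 and Gimap5 were 0.49 apart. These distances describe libraries that were also used for the differences above.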

How the data were processed

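Per the labels' protocols, Trizol RNA of both femur regions went into libraries built with the TruSeq RNA kit. The authors deposited 1 table per region with RPKM per RefSeq transcript and library, per the file headers. Build mm9 and the tools Partek 6.6, Bowtie 0.12.7.0, TopHat 1.3.2 and CASAVA 1.8.2 are listed in the submitters' processing notes, with no role stated, and the annotation release is not given in the sources used here. RPKM corrects for length and depth, not for composition.

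Transcripts were summed per symbol. Genes with at least 1 RPKM in 3 of 6 libraries were kept and fitted, on log2(RPKM + 0.1), in R 4.3.3 by limma 3.58.1 with its trend option, 2-sided, per region, with Benjamini-Hochberg adjustment over all genes and a threshold of 0.05. This scale understates the change of low genes. Regions were compared through a contrast of their genotype differences over all 12 libraries. The fit was also run on simulated data, drawn with independent noise per gene. Those data held no shifts of whole libraries such as those seen in the diaphysis, so the run does not cover them. Depth came from low values of symbols with 1 transcript, of which 73.6% to 83.0% came within 0.1 of whole reads, too few to rebuild counts. Chance would give 20% at a depth fixed beforehand, whereas these depths were picked by a search for a high share. Replicate numbers follow the order of records and pair nothing. Tables were prepared in Python 3.11.15 with pandas 2.3.3 and numpy 2.4.6.

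The members and lists were chosen with earlier results of these data known. Named genes are all members, Dlx3 as a check of the labels and, per list, up to 4 genes past the threshold by smallest p. The 8 genes nearest in pattern are named too. Of the 5 measured neighbours on each side, only those past the threshold or without overlap between genotypes are named. That narrowing was made after their values were seen. S1pr1, Cd3d, Gabarapl2 and Vwf were named after their values were seen. One gene that the rule names is not reported here. Alternatives changed the pseudocount (1 and 0.01), the filter, the scaling (median ratio and without globin), the transcript summary, the libraries and the shared spread.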

Additional observations from a re-analysis of the deposited data

How the results depend on the processing

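No paired analysis was possible because the labels give no replicate number that groups share. In the metaphysis 3 members passed as analysed, against 0 when all 12 libraries shared the spread, 1 without the filter on low values, and 0 to 2 without 1 library. All genes passing there went from 1441 to 7 with that shared spread, to 789 without the filter and to 105 to 1418 without 1 library, with 105 when cKO replicate 3 was left out and 188, 243 and 672 when the WT libraries were, in the order of their numbers. Genes whose difference differed between regions went from 0 to 2 without the filter and to 0 to 247 without 1 library, 247 without diaphysis WT replicate 1. Of 104 single-member refits in the metaphysis 84 kept their side of the threshold and their sign, 20 lost a call and 0 changed sign. The 84 include all refits of the 5 members that had no call to lose. Of 13 refits each, Gimap4 kept its call in 9, Gimap6 in 6 and Gimap1 in 4. In the diaphysis 6 of 104 changed sign and 98 did not, and for the difference between regions 4 of 144 did and 140 did not. These were values near 0: diaphysis Gimap1 (-0.19 to 0.015 without 1 library), Gimap6 (0.021 scaled without globin, -0.13 to 0.17 without 1 library) and Gimap9 (-0.34 to 0.17), and the region difference of Gimap9 (-0.13 to 0.37). The cause was not tested. Fits without a library have fewer samples. Depth limits Gimap7 most, with 14 reads in the shallowest library.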

Other observations

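Nearest genes were also listed for each single member, a step added after the values had been seen. For Gimap3 the 5 nearest were H2-DMb2 (root mean square difference 0.20), H2-Aa (0.22), Sap25 (0.24), Cd74 (0.24) and Obfc2a (0.25). Their log2 differences between genotypes in the metaphysis were -0.48, -0.19, -0.40, -0.0087 and -0.33, and in the diaphysis -0.50, -0.67, -0.46, -0.55 and -0.24. For Gimap7 the 5 nearest were Ciita (0.21), Pira6 (0.22), Aim1 (0.25), Clec10a (0.26) and Rasgrp1 (0.28). No group of genes was tested for being more frequent among them. Gimap9 was nearest to Ada, an enzyme of purine breakdown on which lymphocytes depend (0.085), and Gimap8 to Gng2 (0.050). Gimap4 and Gimap6 shared Tmem62 among their 5 nearest (0.16 and 0.12).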
